A study of Mus musculus with 16 samples.

Results

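The 32 genes described here belong to the unfolded protein response and the integrated stress response, and were taken as the probe sets whose annotated symbol is one of a fixed set of names. That set and the other gene lists were chosen with earlier results of these data known. Shares of all genes beside their counts are therefore given for scale and are not a test. All 32 of these genes, among 18193 named on the array, were measured by 76 probe sets, and all 32 passed the filter on low intensity that left 13915 genes in the tests. They were divided by role into an ATF4 arm of 9 genes, an ER chaperone arm of 14, 4 sensors and transducers, and 5 genes of ER-associated degradation. Each gene was read from its brightest probe set, and levels of different genes are not compared because probe sets differ in brightness.

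The arrays held RNA from cortical neurons of C57BL/6 mouse embryos of day 16.5, cultured for 7 days. They were infected on day 5 with lentivirus, with polybrene at 6 µg per ml, for 6 h. c-Fos shRNA neurons carried a hairpin against c-Fos, the AP-1 subunit encoded by Fos, and control shRNA neurons carried a hairpin against firefly luciferase, which the cells do not make. Both kinds of culture were silenced and then depolarised with KCl for 0, 1, 3 or 6 h, which gives 8 groups of 2 arrays. The labels do not say how many c-Fos hairpins were used, what fraction of cells took up virus, or whether replicates came from separate dissections. The p-values therefore measure the spread between arrays, which may be technical.

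The endoplasmic reticulum (ER) folds secreted and membrane proteins with chaperones such as BiP, and unfolded protein there activates the sensors PERK, IRE1 and ATF6, which raise chaperone and degradation genes. PERK also phosphorylates the translation factor eIF2α, as do kinases that sense amino acid shortage, haem shortage or double-stranded RNA, and this shared step is called the integrated stress response. It lowers general translation while the mRNA of the transcription factor ATF4 is translated more, so ATF4 target genes can rise with or without ER chaperone genes. In neurons the same step is known to affect protein synthesis that follows activity.

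Fos itself was lower with c-Fos shRNA at all 4 times. Its deposited intensity with c-Fos shRNA was 118 and 152 (0 h), 7728 and 9623 (1 h), 3763 and 4297 (3 h) and 3142 and 3339.97 (6 h). With control shRNA Fos read 261 and 232 (0 h), 14633 and 14719 (1 h), 13638 and 13308 (3 h) and 11960.4 and 11898 (6 h), and no c-Fos shRNA array reached a control array of the same time. The log2 differences with their standard errors (SE) were -0.77 ± 0.10, -0.75 ± 0.10, -1.74 ± 0.10 and -1.85 ± 0.10 in order of time (all called). Neuronal markers had a median at the 97.3th percentile of the probe sets, while 2 of 6 microglial and 3 of 6 vascular and fibroblast markers passed the filter. All 6 astrocyte, 6 oligodendrocyte lineage and 5 progenitor markers passed it too, with medians at the 86.5th, 81.5th and 79.8th percentiles. Of 8 neuronal markers, Rbfox3 was lower with c-Fos shRNA at each time (-0.74, -0.70, -0.70 and -0.81 at 0, 1, 3 and 6 h). The summed intensity of the 8 ran from 50317 to 58473 with c-Fos shRNA and from 51762 to 57236 with control shRNA, and 1, 2 and 2 of the others were higher at 1, 3 and 6 h. Of 5 progenitor markers, Hes5 was lower at 1, 3 and 6 h (-0.62, -1.18 and -0.76), and Sox2 at 1 h (-0.27), with sums of 7775 to 10961 against 8363 to 10899. Of 6 astrocyte markers Slc1a3 alone was called, lower at 0 and 1 h (-0.23 and -0.20). Uncalled values were larger for S100b, a dim marker, at -0.89, -0.86, -0.78 and -0.88 at 0, 1, 3 and 6 h (SE 0.34). Those of Aldh1l1 went the other way, at 0.27, 0.22, 0.19 and 0.25 (SE 0.14). No microglial, vascular or oligodendrocyte lineage marker was called between the shRNAs. Some of their SEs were wide, such as 0.67 for Pdgfra and 0.94 for Dcn, so the lack of calls does not show equal amounts. The part of these shifts in the results below was not tested, and in such bulk RNA fewer cells of a type and less RNA per cell cannot be told apart.

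After 6 h of KCl the called genes of the ATF4 arm were all higher, and most called chaperones were lower. Calls are of genes with an adjusted p (Benjamini-Hochberg, over all 13915 genes, limma) under 0.05. Changes are on the scale log2(intensity + 16). With c-Fos shRNA, 5 of the 32 genes rose and 1 fell at 1 h (1.96% and 1.42% of all genes), 7 rose and 3 fell at 3 h (9.9% and 18.3%), and 8 rose and 10 fell at 6 h (16.1% and 24.9%). With control shRNA, 3 rose and 1 fell at 1 h (2.3% and 0.819%), 12 rose and 6 fell at 3 h (11% and 19.3%), and 11 rose and 9 fell at 6 h (16.7% and 27.4%). The 3 times of an shRNA share the same 0 h arrays. With the replicate number as a block the 1 h counts were 10 with c-Fos shRNA, against 8 with control shRNA (8.33% and 8.12% of all genes either way). Of the block's gains, those with c-Fos shRNA included Ddit4 (0.33) and Derl1 (-0.20) at 1 h, Sel1l (-0.35) at 3 h, and Pdia3 (-0.15) and Edem1 (-0.23) at 6 h, with adjusted p from 0.00112 to 0.049. With control shRNA they included Ddit4 (0.26) and Sesn2 (0.43) at 1 h, Calr (-0.17) and Dnajb11 (-0.22) at 3 h, and Hyou1 (0.29) at 6 h, with adjusted p from 0.00355 to 0.0215. Without control 0 h replicate 2 the 3 h control count was 11 in place of 18 (22.9%).

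The ATF4 and chaperone arms differed in these counts. In the ATF4 arm, 2, 4 and 6 of 9 genes rose at 1, 3 and 6 h with c-Fos shRNA, 2, 8 and 8 of 9 rose with control shRNA, and no gene fell in either. Its median log2 change was 0.02, 0.51 and 0.56 with c-Fos shRNA, against 0.26, 1.21 and 0.82 with control shRNA, beside medians of all tested genes between -0.07 and -0.03. In the chaperone arm, 2, 2 and 1 of 14 genes rose and 0, 1 and 8 fell with c-Fos shRNA, and 0, 2 and 1 rose and 0, 3 and 7 fell with control shRNA. Its medians at 6 h were -0.18 with c-Fos shRNA, against -0.15 with control shRNA. Of all genes, 1.96%, 9.9% and 16.1% rose and 1.42%, 18.3% and 24.9% fell at 1, 3 and 6 h with c-Fos shRNA. With control shRNA 2.3%, 11% and 16.7% of all genes rose and 0.819%, 19.3% and 27.4% fell.

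**Figure D1:**
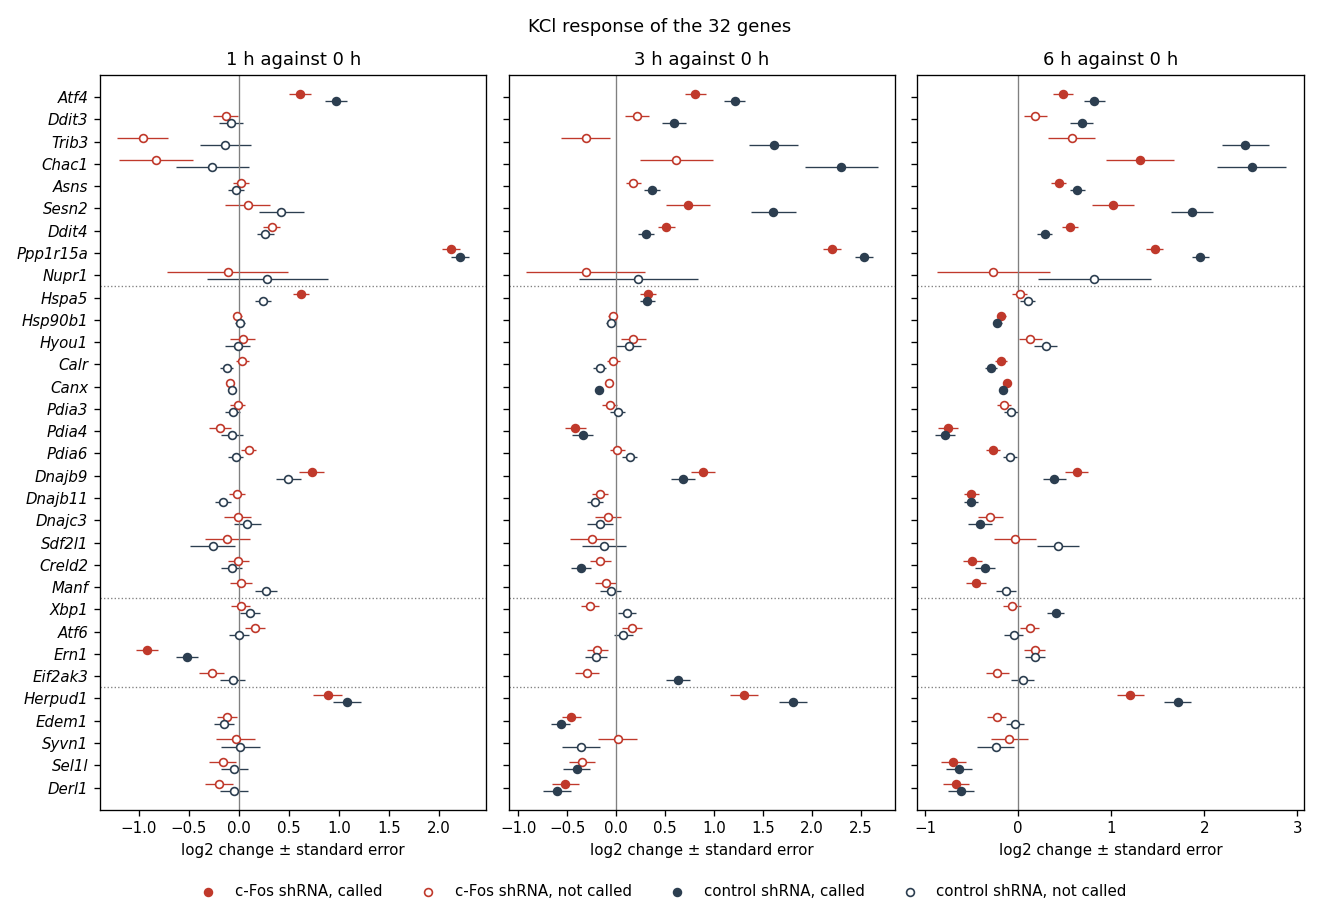
Log2 change from 0 h (x axis, with its standard error) of the 32 genes (y axis) after 1, 3 and 6 h of KCl, with c-Fos shRNA in red above control shRNA in dark blue; filled points passed an adjusted p under 0.05. From top to bottom the dotted lines separate the ATF4 arm, the ER chaperones, the sensors and transducers, and ER-associated degradation. With control shRNA, 8 of 9 ATF4 arm genes rose at 3 and at 6 h (11% and 16.7% of all genes), and 7 of 14 chaperones fell at 6 h (27.4%).

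Atf4 encodes the transcription factor at the centre of the integrated stress response, and its mRNA rose within 1 h of KCl. Its intensity with c-Fos shRNA was 5432 and 6851 (0 h), 8908.5 and 10016 (1 h), 10879.8 and 10835 (3 h) and 8707 and 8829 (6 h). With control shRNA it was 3795 and 4993 (0 h), 8859.5 and 8645 (1 h), 10864 and 10086 (3 h) and 7799 and 8079 (6 h). With both shRNAs all arrays after KCl were above the 0 h arrays of the same shRNA, the highest values came at 3 h, and the c-Fos shRNA arrays were above the control arrays at 0, 1 and 6 h. The log2 rise at 1, 3 and 6 h was 0.61 ± 0.11, 0.81 ± 0.11 and 0.48 ± 0.11 with c-Fos shRNA, against 0.97 ± 0.11, 1.21 ± 0.11 and 0.82 ± 0.11 with control shRNA (adjusted p from 5.19e-06 to 0.00751). The c-Fos shRNA rise lost its call at 1 h without c-Fos 0 h replicate 1 (0.47) or c-Fos 1 h replicate 2 (0.54), and at 6 h without c-Fos 0 h replicate 1 (0.34). Atf4 was higher with c-Fos shRNA at 0 h (0.48 ± 0.11 with an adjusted p of 0.008). The difference was not called without c-Fos 0 h replicate 2 (0.34), without control 0 h replicate 1 (0.29) or with the mean of its 3 probe sets (0.12).

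Ppp1r15a, which encodes the regulatory subunit that directs a phosphatase to eIF2α and so ends the translation block, was the steepest early riser of the 32 genes. It read 441 and 535 (0 h), 2105 and 2238 (1 h), 2237 and 2219 (3 h) and 1239 and 1428 (6 h) with c-Fos shRNA. With control shRNA Ppp1r15a read 419.7 and 505 (0 h), 2126 and 2302 (1 h), 2782 and 2651 (3 h) and 1783 and 1800.2 (6 h). All 1 h arrays were about as high as those at 3 h with c-Fos shRNA, while with control shRNA the 3 h arrays were the highest. The log2 change at 1, 3 and 6 h was 2.12 ± 0.09, 2.20 ± 0.09 and 1.47 ± 0.09 with c-Fos shRNA, against 2.21 ± 0.09, 2.52 ± 0.09 and 1.95 ± 0.09 with control shRNA. These 6 calls held under every alternative that was run. Between the shRNAs Ppp1r15a differed at 6 h, where both c-Fos shRNA arrays were below both control arrays (-0.41 ± 0.09 with an adjusted p of 0.00649), and that call was lost without c-Fos 6 h replicate 1 (-0.34).

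Chac1, an enzyme that degrades glutathione and a known ATF4 target, started higher with c-Fos shRNA and rose late with both shRNAs. With c-Fos shRNA it read 732 and 1105 (0 h), 353 and 737 (1 h), 1529 and 1214 (3 h) and 2534 and 1939.99 (6 h). Control shRNA arrays gave 299 and 411 (0 h), 211 and 412 (1 h), 2176 and 1414 (3 h) and 2469 and 1656 (6 h). At 0 h both c-Fos shRNA arrays were above both control arrays, and from 1 h on the shRNA groups overlapped. The KCl change with c-Fos shRNA was 0.61 ± 0.37 at 3 h, which was not called (adjusted p = 0.267). At 6 h it was 1.31 ± 0.37 with an adjusted p of 0.0129. With control shRNA it was 2.30 ± 0.37 with an adjusted p of 0.000436 at 3 h and 2.51 ± 0.37 with an adjusted p of 0.000135 at 6 h. The 0 h difference between the shRNAs was 1.34 ± 0.37 with an adjusted p of 0.02. That difference was no longer called without c-Fos 0 h replicate 2 (1.10) or control 0 h replicate 1 (1.14), and the 6 h rise with c-Fos shRNA not without c-Fos 0 h replicate 1 (1.06) or c-Fos 6 h replicate 1 (1.10).

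Trib3 encodes a pseudokinase that binds ATF4 and restrains it, and it had the largest interaction between shRNA and KCl of the 32 genes at 3 and at 6 h. With c-Fos shRNA its intensity was 183 and 215 (0 h), 73.9 and 115 (1 h), 164 and 145 (3 h) and 266 and 327 (6 h). With control shRNA it was 65.1 and 111 (0 h), 57.5 and 96.7 (1 h), 340.5 and 239 (3 h) and 549 and 466 (6 h). The c-Fos shRNA arrays were above the control arrays at 0 h, overlapped them at 1 h and were below them at 3 and at 6 h. With c-Fos shRNA no KCl change was called (-0.96, -0.31 and 0.57 at 1, 3 and 6 h, each with an SE of 0.25). With the replicate block the 1 h fall (adjusted p = 0.0108) and the 6 h rise (adjusted p = 0.0373) passed. With control shRNA Trib3 rose by 1.61 ± 0.25 with an adjusted p of 0.000366 at 3 h and 2.44 ± 0.25 with an adjusted p of 8.16e-06 at 6 h. The differences between the shRNAs were 1.10 ± 0.25 with an adjusted p of 0.00746 at 0 h, -0.82 ± 0.25 with an adjusted p of 0.0341 at 3 h and -0.76 ± 0.25 with an adjusted p of 0.0452 at 6 h. The 0 h call was lost without c-Fos 0 h replicate 2 (1.04) or control 0 h replicate 1 (0.80). The 3 h call was lost without c-Fos 3 h replicate 1 (-0.93), c-Fos 3 h replicate 2 (-0.71) or control 3 h replicate 1 (-0.56), with the mean of its probe sets (-0.55) or without normalization (-0.82), and the 6 h call in 14 of 25 alternatives.

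Sesn2, which encodes a leucine sensor that restrains the growth kinase mTORC1, rose at 3 and 6 h of KCl with both shRNAs. It read 1376 and 1331 (0 h), 1637 and 1333 (1 h), 2530.1 and 1999.7 (3 h) and 3354 and 2263 (6 h) with c-Fos shRNA. With control shRNA Sesn2 read 1038 and 913 (0 h), 1445 and 1309.9 (1 h), 3635.5 and 2523 (3 h) and 4301 and 3075.5 (6 h). The c-Fos shRNA arrays were above control at 0 h, and from 1 h on the shRNA groups overlapped. Its rise at 3 and 6 h was 0.73 ± 0.23 with an adjusted p of 0.0294 and 1.02 ± 0.23 with an adjusted p of 0.0032 with c-Fos shRNA. It was 1.60 ± 0.23 with an adjusted p of 0.000164 and 1.87 ± 0.23 with an adjusted p of 2.99e-05 with control shRNA. The 3 h call with c-Fos shRNA was lost without c-Fos 0 h replicate 1 (0.81), c-Fos 0 h replicate 2 (0.66) or c-Fos 3 h replicate 1 (0.56), and with the mean of all probe sets (0.61). Differences between the shRNAs of 0.47, -0.40 and -0.38 at 0, 3 and 6 h were not called, but were with the replicate block (adjusted p = 0.00112, 0.00378 and 0.00519).

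Ddit3 encodes CHOP, the transcription factor of prolonged ER stress. Its calls after KCl were with control shRNA, where it rose by 0.59 ± 0.12 with an adjusted p of 0.00299 at 3 h and 0.68 ± 0.12 with an adjusted p of 0.000686 at 6 h. With c-Fos shRNA its arrays read 654 and 883 (0 h), 662 and 759 (1 h), 892 and 833 (3 h) and 760.1 and 923 (6 h), and the changes of 0.21 and 0.18 at 3 and 6 h were not called. With control shRNA they read 492 and 539 (0 h), 473 and 543 (1 h), 785 and 739 (3 h) and 747 and 847 (6 h). The c-Fos shRNA arrays were above the control arrays at 0, 1 and 3 h, with called differences at 0 h (0.55 ± 0.12 with an adjusted p of 0.0068) and 1 h (0.50 ± 0.12 with an adjusted p of 0.0129). Leaving out c-Fos 0 h replicate 2 (0.39) or control 0 h replicate 1 (0.50) ended the 0 h call, and leaving out c-Fos 1 h replicate 2 (0.40) or control 1 h replicate 1 (0.41) ended the 1 h call. With the mean of all its probe sets these differences (0.20 and 0.41) and the 6 h rise with control shRNA (0.36) were not called.

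The remaining members of the arm split into 2 strong probe sets and 1 dim one. Asns, asparagine synthetase, read 6746 and 7614 (0 h), 6829 and 8072 (1 h), 8095 and 8445 (3 h) and 9947 and 9784 (6 h) with c-Fos shRNA. With control shRNA Asns read 6168 and 6672 (0 h), 6190.1 and 6691 (1 h), 8818 and 8346 (3 h) and 10905 and 9857 (6 h). It rose by 0.44 ± 0.08 with an adjusted p of 0.000794 with c-Fos shRNA, against 0.63 ± 0.08 with an adjusted p of 3.71e-05 with control shRNA at 6 h. Between the shRNAs its 1 h difference of 0.19 (adjusted p = 0.113) was called with the replicate block (adjusted p = 0.0425) and without c-Fos 1 h replicate 1 (0.30, adjusted p = 0.0313), and no other was. Ddit4, an inhibitor of mTORC1, rose by 0.51 ± 0.08 and 0.56 ± 0.08 at 3 and 6 h with c-Fos shRNA, against 0.30 ± 0.08 and 0.28 ± 0.08 with control shRNA. Its control calls were lost without control 0 h replicate 2 (0.27 at 3 h, 0.24 at 6 h), control 3 h replicate 1 (0.27 at 3 h) or control 6 h replicate 1 (0.13 at 6 h). Nupr1, a small stress-induced nuclear protein, had intensities of 10.8 to 108 over all 16 arrays, at the 33.65th percentile of the probe sets, and none of its changes was called. With the replicate block Nupr1 was called higher with c-Fos shRNA at 0 h (0.94, adjusted p = 0.0132) and higher after 6 h of KCl with control shRNA (0.82, adjusted p = 0.0194).

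**Figure D2:**
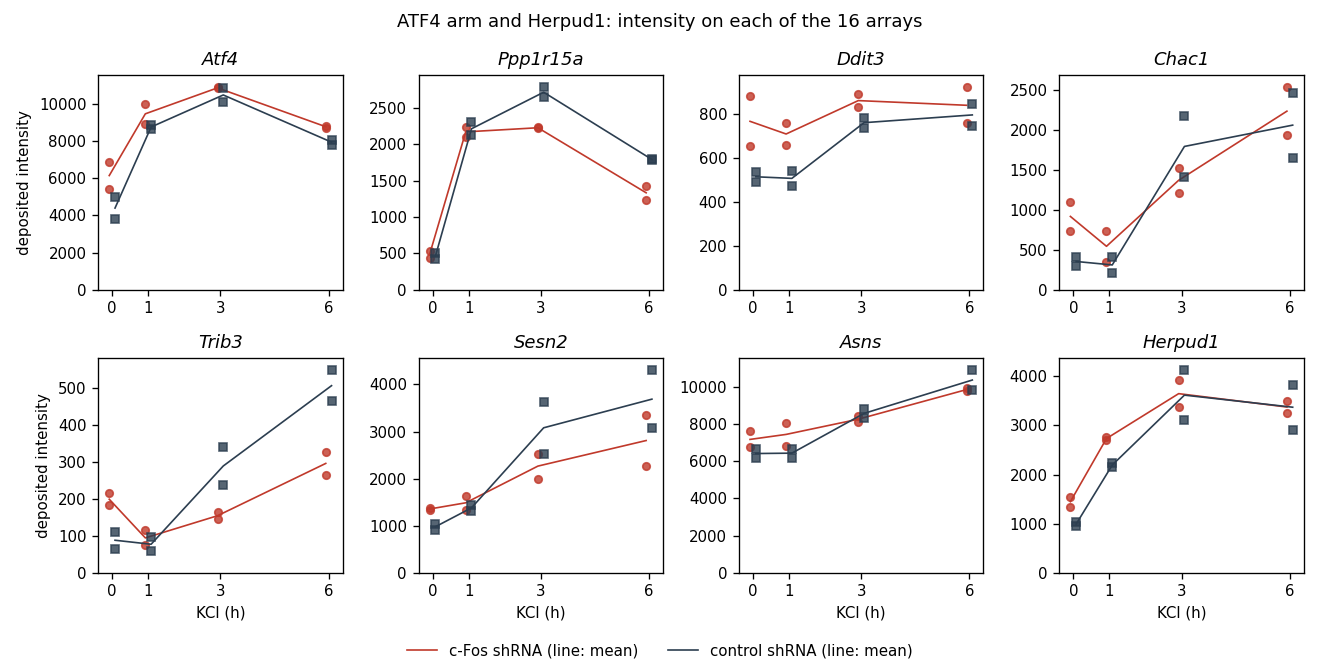
Deposited intensity (y axis, linear, from 0) on each array against hours of KCl (x axis) for 7 ATF4 arm genes and Herpud1; red circles are c-Fos shRNA, dark blue squares are control shRNA and lines join group means. Trib3 with c-Fos shRNA lies above control at 0 h and below it at 3 and 6 h, while Atf4 reaches its highest values at 3 h with both shRNAs.

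The promoters of the arm were read to show which carry the C/EBP-ATF element, TGATGNAA, a composite site known to bind ATF4 with a C/EBP partner. RefSeq sequence on GRCm38.p6 from 250 bases before to 50 after the annotated start was found for 28 of the 32 genes, and 4 motifs were searched on both strands with no overlap between matches. The C/EBP-ATF element occurred in 3.97% of 32851 mouse promoters of that length, in 4 of 9 ATF4 arm promoters, in 1 of 4 degradation promoters (Herpud1) and in no chaperone or sensor promoter of the 12 and 3 read. The 4 arm elements, written in the direction of the motif with its fixed bases in capitals, were:
Asns, chr6:7693225-7693232: TGATGaAA
Chac1, chr2:119351049-119351056: TGATGcAA
Nupr1, chr7:126625573-126625580: TGATGcAA
Trib3, chr2:152344039-152344046: TGATGtAA
Asns and Chac1 carried theirs 23 and 193 bases before the start, Nupr1 110 before and Trib3 14 after. The 250 bases before the start of Chac1 are printed because it had the widest 0 h difference between the shRNAs of the 32 genes, with the element (reverse strand) in capitals:
Chac1, chr2:119350992-119351241, plus strand: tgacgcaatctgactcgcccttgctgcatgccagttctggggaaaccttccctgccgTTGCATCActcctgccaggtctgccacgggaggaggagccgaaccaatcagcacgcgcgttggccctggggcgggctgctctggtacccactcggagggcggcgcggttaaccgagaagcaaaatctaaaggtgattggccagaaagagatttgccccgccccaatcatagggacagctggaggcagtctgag
Atf4, Ddit3, Sesn2, Ddit4 and Ppp1r15a held no match in this window, which says only that these letters are not there.

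The sensors and transducers showed few KCl changes. Ern1 encodes IRE1, the kinase and nuclease that splices Xbp1 mRNA, and read 474 and 479 (0 h), 227 and 263 (1 h), 382 and 416 (3 h) and 501 and 530.2 (6 h) with c-Fos shRNA. With control shRNA Ern1 read 614 and 535 (0 h), 404 and 416 (1 h), 445 and 514 (3 h) and 579 and 666 (6 h). It fell at 1 h with both shRNAs, with log2 changes of -0.92 ± 0.11 with an adjusted p of 0.000292 with c-Fos shRNA, against -0.52 ± 0.11 with an adjusted p of 0.0205 with control shRNA. Its levels at 6 h were not called different from 0 h. The control call was lost without control 0 h replicate 1 (-0.41), control 1 h replicate 1 (-0.51) or control 1 h replicate 2 (-0.52), and both were lost with the mean of all 5 probe sets (-0.06 and -0.09). At 1 h Ern1 was lower with c-Fos shRNA than with control shRNA (-0.66 ± 0.11 with an adjusted p of 0.00101), which the mean of all probe sets gave as -0.21 (not called).

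Eif2ak3 encodes PERK, the ER kinase of eIF2α, and the shRNA groups parted at 3 h. It read 1481 and 1541 (0 h), 1169 and 1412 (1 h), 1132 and 1299.6 (3 h) and 1175 and 1403 (6 h) with c-Fos shRNA. With control shRNA Eif2ak3 read 1051 and 1203 (0 h), 1068 and 1211 (1 h), 1735 and 1827 (3 h) and 1029 and 1286 (6 h). Both control arrays at 3 h stood above all other control arrays. It rose by 0.63 ± 0.12 with an adjusted p of 0.0017 at 3 h with control shRNA, while the c-Fos shRNA change of -0.30 was called lower with the replicate block alone (adjusted p = 0.00314). The block also called the c-Fos shRNA changes of -0.27 and -0.23 at 1 and 6 h (adjusted p = 0.0299 and 0.0156), and the 1 h difference between the shRNAs (0.21, adjusted p = 0.0332). The control rise was not called with the mean of its 3 probe sets (0.22). Between the shRNAs it was higher with c-Fos shRNA at 0 h (0.42 ± 0.12 with an adjusted p of 0.0277) and lower at 3 h (-0.52 ± 0.12 with an adjusted p of 0.00892). Between the shRNAs that mean gave -0.02 at 0 h and -0.23 at 3 h (not called). Both calls were also lost with some single arrays left out, though some of the values hardly moved. The 0 h value was 0.41, 0.44 or 0.33 without c-Fos 0 h replicate 1, c-Fos 0 h replicate 2 or control 0 h replicate 1. The 3 h value was -0.42 or -0.48 without c-Fos 3 h replicate 1 or control 3 h replicate 2, all uncalled.

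Atf6 encodes the membrane-bound transcription factor that is cut in the Golgi and raises chaperone genes, and it was lower with c-Fos shRNA at each of the 4 times. Its arrays gave 422 and 445 (0 h), 453 and 537 (1 h), 468 and 463 (3 h) and 425 and 477 (6 h) with c-Fos shRNA. With control shRNA Atf6 read 627 and 656 (0 h), 642 and 704 (1 h), 624 and 686 (3 h) and 547 and 636 (6 h). At every time both c-Fos shRNA arrays were below both control arrays. No KCl change was called by the brightest probe set, while the mean of all its probe sets gave a 6 h rise with c-Fos shRNA (0.45, adjusted p = 0.00495). The differences were -0.56 ± 0.10 with an adjusted p of 0.00175 at 0 h, -0.40 ± 0.10 with an adjusted p of 0.0146 at 1 h. They were -0.47 ± 0.10 with an adjusted p of 0.00474 at 3 h and -0.38 ± 0.10 with an adjusted p of 0.0157 at 6 h. The calls at 0 and 3 h held in every alternative that was run. The 1 h call was lost without c-Fos 1 h replicate 1 (-0.28) or control 1 h replicate 2 (-0.33), and the 6 h call without c-Fos 6 h replicate 1 (-0.37), c-Fos 6 h replicate 2 (-0.40) or control 6 h replicate 2 (-0.31) or with the mean of all probe sets (-0.31).

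Xbp1, the transcription factor made from IRE1-spliced mRNA, was read as total mRNA, which does not separate spliced from unspliced message. It read 5694 and 6477 (0 h), 5866 and 6689 (1 h), 4744 and 5676 (3 h) and 5994 and 5811 (6 h) with c-Fos shRNA. With control shRNA Xbp1 read 4487 and 5217 (0 h), 5118 and 5633 (1 h), 5114 and 5749 (3 h) and 6337 and 6934 (6 h). It rose by 0.40 ± 0.10 with an adjusted p of 0.00426 at 6 h with control shRNA and was higher with c-Fos shRNA at 0 h (0.32 ± 0.10 with an adjusted p of 0.031). That 0 h call was lost without c-Fos 0 h replicate 1 (0.38), c-Fos 0 h replicate 2 (0.25) or control 0 h replicate 1 (0.23). With c-Fos shRNA the 3 h change of -0.27 was not called (adjusted p = 0.0538). It was called with the replicate block (adjusted p = 0.00101), with a filter at the 50th percentile (adjusted p = 0.0483) and with the mean of all probe sets (-0.29, adjusted p = 0.0288). It was also called without c-Fos 3 h replicate 2 (-0.39) or either control 0 h array (-0.27 and -0.27). The block also called differences between the shRNAs at 1 h (0.22, adjusted p = 0.005) and 6 h (-0.15, adjusted p = 0.042).

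Among the ER chaperones, Hspa5 and Dnajb9 were called higher after KCl with both shRNAs. Hspa5 encodes BiP, the Hsp70 of the ER and the holdase that keeps the sensors inactive. With c-Fos shRNA it read 4839.6 and 4878 (0 h), 7431 and 7703 (1 h), 5540.1 and 6994 (3 h) and 4709 and 5265 (6 h). With control shRNA it read 8375 and 7881 (0 h), 10007 and 9596 (1 h), 10491 and 10631 (3 h) and 8542 and 9414.5 (6 h). At each time both c-Fos shRNA arrays lay below both control arrays. Hspa5 rose at 1 h with c-Fos shRNA, by 0.62 ± 0.08 with an adjusted p of 0.000569. At 3 h it rose with both, by 0.32 ± 0.08 with an adjusted p of 0.00819 in c-Fos shRNA cultures and 0.32 ± 0.08 with an adjusted p of 0.00868 in control shRNA cultures. Its 6 h changes of 0.02 and 0.10 were not called. The 3 h calls were lost without c-Fos 0 h replicate 2 (0.31) or c-Fos 3 h replicate 2 (0.18) in c-Fos shRNA cultures and without control 0 h replicate 2 (0.26) or control 3 h replicate 1 (0.31) in control shRNA cultures. Its 1 h change with control shRNA, 0.24, was called with the replicate block alone (adjusted p = 0.047).

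Hspa5 was lower with c-Fos shRNA at each time, with differences of -0.75 ± 0.08 with an adjusted p of 3.58e-05 at 0 h, -0.37 ± 0.08 with an adjusted p of 0.00544 at 1 h. The difference was -0.74 ± 0.08 with an adjusted p of 3.75e-05 at 3 h and -0.84 ± 0.08 with an adjusted p of 1.9e-05 at 6 h. At 0, 3 and 6 h this held under every alternative that was run, and at 1 h it was lost without control 1 h replicate 1 (-0.33). A second probe set of the gene gave -0.82 at 0 h, and the dimmest of the 3 gave 0.04 (not called).

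Dnajb9 encodes ERdj4, a cochaperone that brings BiP to IRE1. It read 1575 and 1851 (0 h), 2621 and 3158 (1 h), 3037 and 3388 (3 h) and 2449.9 and 2874 (6 h) with c-Fos shRNA. With control shRNA Dnajb9 read 2405 and 2598 (0 h), 3386 and 3851 (1 h), 3751 and 4539 (3 h) and 3090.02 and 3691 (6 h). The rise over 0 h at 1, 3 and 6 h was 0.73 ± 0.12, 0.88 ± 0.12 and 0.63 ± 0.12 with c-Fos shRNA (all called). It was 0.49 ± 0.12, 0.68 ± 0.12 and 0.39 ± 0.12 with control shRNA, where 1 h was not called (adjusted p = 0.0571, and 1.15e-05 with the replicate block). Without c-Fos 0 h replicate 1 (0.65) or c-Fos 1 h replicate 2 (0.59) the c-Fos shRNA call at 1 h was lost, and without control 0 h replicate 1 (0.34) or control 6 h replicate 2 (0.28) the control call at 6 h. The c-Fos shRNA arrays were below the control arrays at all 4 times, with a called difference at 0 h (-0.56 ± 0.12 with an adjusted p of 0.00638, and -0.48, not called, without c-Fos 0 h replicate 1). With the replicate block the differences at 1, 3 and 6 h, -0.32, -0.36 and -0.32, were called too (adjusted p = 0.000192, 6.54e-05 and 0.000199).

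Manf and Pdia4 ran the other way from Hspa5 between the shRNAs. Manf encodes a secreted ER protein with neurotrophic activity, and read 4697 and 4513 (0 h), 4982 and 4505 (1 h), 4333 and 4404 (3 h) and 3393 and 3373 (6 h) with c-Fos shRNA. With control shRNA Manf read 2250.3 and 2142 (0 h), 2589 and 2889 (1 h), 1939 and 2393 (3 h) and 1815 and 2271 (6 h). Every c-Fos shRNA array, at any time, was above every control array. The difference was 1.06 ± 0.11 with an adjusted p of 2.79e-05 at 0 h, 0.81 ± 0.11 with an adjusted p of 0.00022 at 1 h. It was 1.01 ± 0.11 with an adjusted p of 3.85e-05 at 3 h and 0.73 ± 0.11 with an adjusted p of 0.000442 at 6 h, and these 4 calls held under every alternative that was run. With KCl Manf fell by 0.45 on the log2 scale (SE 0.11, adjusted p = 0.00482) at 6 h with c-Fos shRNA, and the control change of -0.13 was not called. The array annotation gave Manf a single probe set.

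Pdia4, a disulfide isomerase of the BiP complex, read 1413 and 1298 (0 h), 1308 and 1145 (1 h), 1003 and 1000.5 (3 h) and 747 and 809.5 (6 h) with c-Fos shRNA. With control shRNA Pdia4 read 894 and 923 (0 h), 919 and 908 (1 h), 654 and 764 (3 h) and 451 and 553 (6 h). It was higher with c-Fos shRNA by 0.56 ± 0.11, 0.45 ± 0.11, 0.49 ± 0.11 and 0.60 ± 0.11 at 0, 1, 3 and 6 h (adjusted p from 0.002 to 0.0117). Pdia4 fell at 6 h of KCl with both shRNAs, with log2 changes of -0.75 ± 0.11 with c-Fos shRNA, against -0.79 ± 0.11 with control shRNA. Its calls between the shRNAs depended on the probe set: with the mean of both, the differences were 0.40, 0.12, 0.18 and 0.07 and none was called. That mean also ended both 6 h KCl calls (-0.39 with c-Fos shRNA, against -0.06 with control shRNA). The 1 h call was also lost without c-Fos 1 h replicate 1 (0.35), control 1 h replicate 1 (0.47) or control 1 h replicate 2 (0.43), and the 3 h call without control 3 h replicate 1 (0.39).

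Several other chaperones were higher with c-Fos shRNA by smaller amounts. Creld2, an ER protein induced by ER stress, read 1088 and 1187 (0 h), 1142 and 1192 (1 h), 925 and 1089 (3 h) and 759.8 and 813 (6 h) with c-Fos shRNA. With control shRNA Creld2 read 828 and 850.2 (0 h), 796 and 886 (1 h), 588 and 686 (3 h) and 568 and 692 (6 h). All c-Fos shRNA arrays were above the control arrays of the same time. Creld2 differed by 0.44 ± 0.10, 0.50 ± 0.10 and 0.64 ± 0.10 at 0, 1 and 3 h (called) and by 0.30 at 6 h (adjusted p = 0.0549, and 0.00483 with the replicate block). Hyou1, an Hsp110-type exchange factor of BiP, was higher by 0.45 ± 0.13, 0.49 ± 0.13 and 0.49 ± 0.13 at the same times. Calr, the calcium-binding lectin chaperone calreticulin, was higher at 1, 3 and 6 h, by 0.30 ± 0.06, 0.29 ± 0.06 and 0.25 ± 0.06. Of these 9 calls that of Creld2 at 3 h held whichever array was left out. The call for Creld2 was lost at 0 h without c-Fos 0 h replicate 2 (0.43) or control 0 h replicate 1 (0.43) and at 1 h without control 1 h replicate 1 (0.43). For Hyou1 the array was c-Fos 0 h replicate 1 (0.49), c-Fos 0 h replicate 2 (0.40) or control 0 h replicate 1 (0.27) at 0 h. At later times it was c-Fos 1 h replicate 2 (0.42), control 1 h replicate 1 (0.50) or control 1 h replicate 2 (0.49) at 1 h, and c-Fos 3 h replicate 2 (0.42) or control 3 h replicate 1 (0.41) at 3 h. For Calr it was control 1 h replicate 2 (0.25) at 1 h, control 3 h replicate 2 (0.21) at 3 h, and c-Fos 6 h replicate 2 (0.20) or control 6 h replicate 1 (0.24) at 6 h.

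The disulfide isomerases Pdia3 and Pdia6 were lower with c-Fos shRNA. Pdia3, which works with calnexin and calreticulin, differed by -0.26 ± 0.07 with an adjusted p of 0.0232 at 3 h and -0.25 ± 0.07 with an adjusted p of 0.03 at 6 h. Pdia6 differed by -0.26 ± 0.08 with an adjusted p of 0.0256 at 6 h, and fell after 6 h of KCl with c-Fos shRNA (-0.27 ± 0.08 with an adjusted p of 0.0124). The Pdia3 calls were lost without c-Fos 3 h replicate 2 (-0.19) or control 3 h replicate 1 (-0.20) at 3 h. At 6 h the call was lost without c-Fos 6 h replicate 1 (-0.25), c-Fos 6 h replicate 2 (-0.24), control 6 h replicate 1 (-0.27) or control 6 h replicate 2 (-0.23). Those of Pdia6 were lost without c-Fos 6 h replicate 1 (-0.18) or control 6 h replicate 2 (-0.18) between the shRNAs and without c-Fos 0 h replicate 1 (-0.26) or c-Fos 6 h replicate 1 (-0.18) after KCl. Hsp90b1, which encodes the ER member of the Hsp90 family, and Canx, calnexin, each had 1 called difference, of 0.15 ± 0.05 at 6 h and 0.13 ± 0.04 at 3 h. Each was lost when 1 array was left out, Hsp90b1 without c-Fos 6 h replicate 1 (0.16), c-Fos 6 h replicate 2 (0.15) or control 6 h replicate 1 (0.09) and Canx without c-Fos 3 h replicate 1 (0.15), c-Fos 3 h replicate 2 (0.11), control 3 h replicate 1 (0.13) or control 3 h replicate 2 (0.13). The Hsp90b1 difference at 3 h, 0.14, had an adjusted p of 0.0572. It was called with the replicate block (adjusted p = 0.0205), with a filter at the 50th percentile (adjusted p = 0.0456) and without c-Fos 1 h replicate 1 or either control 6 h array (0.14 in each). With the mean of all probe sets none of the 4 calls for Pdia3 (3 and 6 h), Hsp90b1 and Canx remained (-0.14, -0.23, 0.10 and 0.15), nor did the KCl fall of Pdia6 (-0.04).

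At 6 h of KCl the chaperones that fell with both shRNAs were Hsp90b1, Calr, Canx, Pdia4, Dnajb11 and Creld2. The falls of Hsp90b1, Calr and Canx were between -0.29 and -0.12, and those of Hsp90b1 and Canx were lost with both shRNAs when arrays were only shifted to 1 median. The 6 h falls with c-Fos shRNA were lost without c-Fos 0 h replicate 1 (-0.16) for Hsp90b1. Those of the others were lost without c-Fos 0 h replicate 1 (-0.12) or c-Fos 6 h replicate 1 (-0.12) for Calr and without c-Fos 0 h replicate 1 (-0.13), c-Fos 0 h replicate 2 (-0.11), c-Fos 6 h replicate 1 (-0.10) or c-Fos 6 h replicate 2 (-0.14) for Canx. With control shRNA that of Canx was lost without control 0 h replicate 2 (-0.11) or control 6 h replicate 1 (-0.14), while that of Creld2 (-0.36) without control 0 h replicate 1 (-0.37), control 0 h replicate 2 (-0.35) or control 6 h replicate 1 (-0.25). Dnajb11, the BiP cochaperone ERdj3, read 2563 and 2315 (0 h), 2394 and 2542 (1 h), 2156 and 2195 (3 h) and 1615 and 1808 (6 h) with c-Fos shRNA. With control shRNA Dnajb11 read 2522 and 2471 (0 h), 2356 and 2304 (1 h), 2265 and 2129.7 (3 h) and 1713 and 1823 (6 h). At 6 h it fell, with log2 changes of -0.51 ± 0.08 with an adjusted p of 0.000264 (c-Fos shRNA) and -0.51 ± 0.08 with an adjusted p of 0.000216 (control shRNA). With both shRNAs its 6 h arrays were the lowest, and these 2 calls held under every alternative that was run. Dnajc3, a cochaperone that also inhibits PERK, changed by -0.30 with c-Fos shRNA (adjusted p = 0.0927, and 0.00197 with the replicate block) and -0.41 with control shRNA (adjusted p = 0.0229). That control call was lost without control 0 h replicate 1 (-0.43), control 0 h replicate 2 (-0.40) or control 6 h replicate 1 (-0.23). Sdf2l1, a partner of Dnajb11, had no called change without the replicate block, with values between -0.37 and 0.43 in the KCl and shRNA comparisons. With the block both of these were called, -0.37 between the shRNAs at 6 h (adjusted p = 0.0411) and 0.43 after 6 h of KCl with control shRNA (adjusted p = 0.0125).

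**Figure D3:**
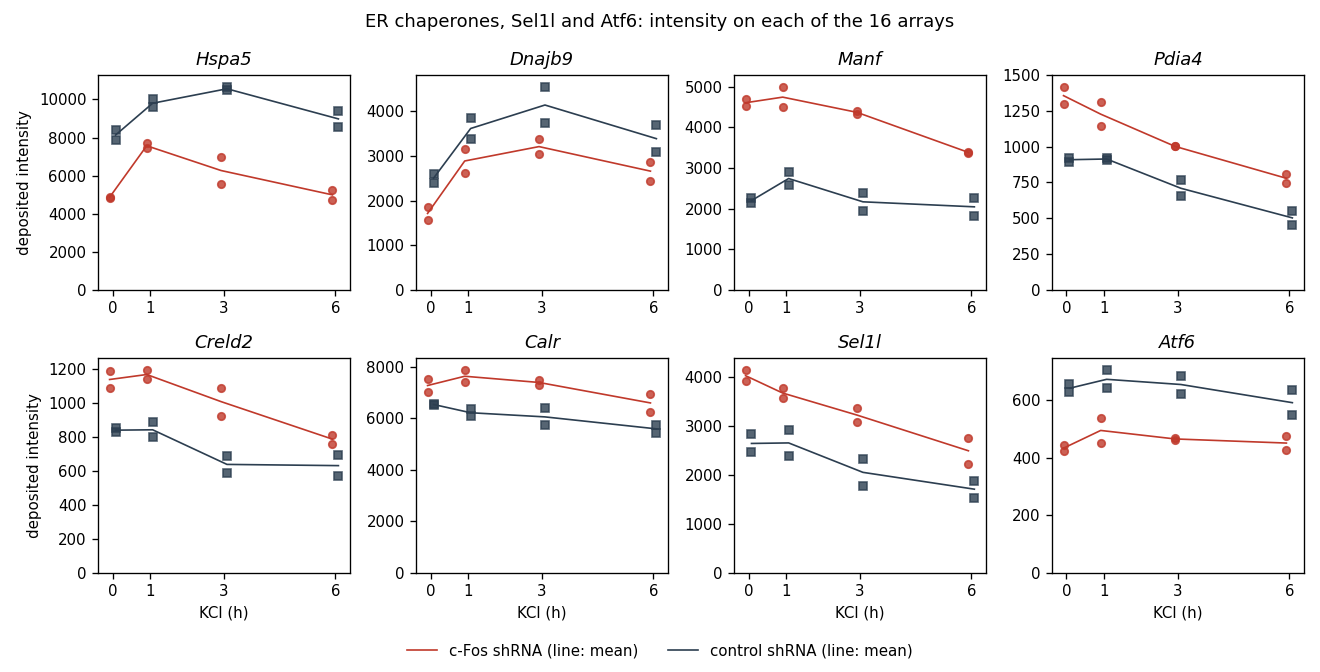
Deposited intensity (y axis, linear, from 0) on each array against hours of KCl (x axis) for 6 ER chaperone genes, Sel1l and Atf6; red circles are c-Fos shRNA, dark blue squares are control shRNA and lines join group means. Manf, Pdia4 and Sel1l lie higher and Hspa5 and Atf6 lower with c-Fos shRNA at all 4 times.

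Promoters of the chaperones are shown for the ER stress element, the motif through which ATF6 is known to act with NF-Y. Its letters, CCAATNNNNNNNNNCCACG, were in 0.119% of all promoters. Among the members they were in 7 of the 12 chaperone promoters that were read and in 1 of the 4 degradation promoters (Syvn1). The 7 include Hspa5, lower with c-Fos shRNA, and Calr and Creld2, higher with c-Fos shRNA, and Hsp90b1 held it at 2 places:
Hspa5, chr2:34772025-34772043: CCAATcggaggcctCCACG
Calr, chr8:84847075-84847093: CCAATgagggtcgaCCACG
Creld2, chr15:88819520-88819538: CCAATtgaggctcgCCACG
Pdia6, chr12:17266491-17266509: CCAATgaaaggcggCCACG
Dnajc3, chr14:118937827-118937845: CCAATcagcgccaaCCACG
Canx, chr11:50325800-50325818: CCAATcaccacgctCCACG
Hsp90b1, chr10:86705638-86705656: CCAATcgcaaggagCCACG
Hsp90b1, chr10:86705533-86705551: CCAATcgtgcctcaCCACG
Syvn1, chr19:6046532-6046550: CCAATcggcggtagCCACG
Hspa5 is printed for the 250 bases before its start, with the element in capitals:
Hspa5, chr2:34771840-34772089, plus strand: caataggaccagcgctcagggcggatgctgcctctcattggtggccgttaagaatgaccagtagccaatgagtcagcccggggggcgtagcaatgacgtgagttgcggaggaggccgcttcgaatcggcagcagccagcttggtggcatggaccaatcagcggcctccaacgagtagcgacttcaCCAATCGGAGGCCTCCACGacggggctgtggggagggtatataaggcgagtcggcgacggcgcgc
A shorter form, ATTGGNCCACG, was in 0.0365% of promoters and in Dnajb11 and Herpud1 among the members. The unfolded protein response element TGACGTGG was in 0.676% of promoters and in none of the members read. Atf6, Derl1, Hyou1 and Manf were not read.

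Herpud1, a membrane protein that organises ER-associated degradation, rose at each time after KCl. It read 1349 and 1547 (0 h), 2699 and 2769 (1 h), 3919 and 3379 (3 h) and 3496 and 3256 (6 h) with c-Fos shRNA. With control shRNA Herpud1 read 941 and 1042 (0 h), 2158 and 2229 (1 h), 4124 and 3113 (3 h) and 3834 and 2911 (6 h). All arrays after KCl were above the 0 h arrays of the same shRNA. Its rise at 1, 3 and 6 h was 0.89 ± 0.14, 1.30 ± 0.14 and 1.20 ± 0.14 with c-Fos shRNA, against 1.08 ± 0.14, 1.81 ± 0.14 and 1.71 ± 0.14 with control shRNA (adjusted p from 1.42e-06 to 0.0032). These 6 calls held under every alternative that was run. At 0 h it was higher with c-Fos shRNA (0.54 ± 0.14 with an adjusted p of 0.016), a call lost without c-Fos 0 h replicate 2 (0.49) or control 0 h replicate 1 (0.47). Among the members its promoter alone held both a C/EBP-ATF element (reverse strand, 112 bases before the start) and the short ER stress element (52 before), shown in capitals in that order:
Herpud1, chr8:94386179-94386428, plus strand: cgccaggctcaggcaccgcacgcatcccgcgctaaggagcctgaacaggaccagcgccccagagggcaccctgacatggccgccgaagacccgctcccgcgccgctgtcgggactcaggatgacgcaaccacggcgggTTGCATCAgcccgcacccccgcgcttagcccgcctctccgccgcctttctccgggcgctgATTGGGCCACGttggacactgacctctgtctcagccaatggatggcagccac

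Sel1l, the adaptor of the HRD1 ubiquitin ligase, was higher with c-Fos shRNA at each time. It read 3908 and 4127 (0 h), 3561 and 3766 (1 h), 3079 and 3349 (3 h) and 2226 and 2746 (6 h) with c-Fos shRNA. With control shRNA Sel1l read 2452 and 2819 (0 h), 2385 and 2907 (1 h), 1769 and 2322 (3 h) and 1526 and 1879 (6 h). At every time both c-Fos shRNA arrays were above both control arrays, by 0.61 ± 0.14, 0.49 ± 0.14, 0.66 ± 0.14 and 0.55 ± 0.14 at 0, 1, 3 and 6 h (adjusted p from 0.00363 to 0.0226). Each of the 4 was lost when some array was left out, with control 0 h replicate 1 giving 0.51, control 1 h replicate 1 giving 0.35, control 3 h replicate 1 giving 0.47 and control 6 h replicate 1 giving 0.42. At 1 h leaving out either c-Fos array (0.53 and 0.45), and at 6 h c-Fos 6 h replicate 2 (0.42), had the same effect. With the mean of its 5 probe sets the differences of 0.22 at 3 h and 0.05 at 6 h were not called.

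Derl1, a channel protein of retrotranslocation, read 3938 and 4603 (0 h), 3678 and 3905 (1 h), 2749 and 3332 (3 h) and 2502 and 2899 (6 h) with c-Fos shRNA. With control shRNA Derl1 read 2882 and 3440.1 (0 h), 2907 and 3388 (1 h), 1869 and 2420.2 (3 h) and 1890.2 and 2314 (6 h). The c-Fos shRNA arrays were above the control arrays at each time. Derl1 fell, with log2 changes of -0.52 ± 0.14 and -0.67 ± 0.14 at 3 and 6 h with c-Fos shRNA, against -0.61 ± 0.14 and -0.62 ± 0.14 with control shRNA. It was higher with c-Fos shRNA at 0 h (0.43 ± 0.14 with an adjusted p of 0.0465) and 3 h (0.51 ± 0.14 with an adjusted p of 0.0185). The 0 h call was lost without c-Fos 0 h replicate 1 (0.50), c-Fos 0 h replicate 2 (0.35) or control 0 h replicate 1 (0.30), and the 3 h call without c-Fos 3 h replicate 2 (0.39) or control 3 h replicate 1 (0.33). The block also called Derl1 at 1 h (0.28, adjusted p = 0.00141) and 6 h (0.37, adjusted p = 0.000111). With the mean of its 4 probe sets the differences of 0.11 at 0 h and 0.26 at 3 h were not called. Nor were the KCl changes of -0.11 and -0.21 at 3 and 6 h with c-Fos shRNA, and of -0.27 at 3 h with control shRNA. The falls at 3 h were lost without c-Fos 0 h replicate 2 (-0.44) or c-Fos 3 h replicate 1 (-0.40) in c-Fos shRNA cultures and without control 0 h replicate 2 (-0.48) or control 3 h replicate 1 (-0.43) in control shRNA cultures. Syvn1, the HRD1 ligase itself, was called between the shRNAs at 3 h (0.65 ± 0.20 with an adjusted p of 0.0302), and not without c-Fos 3 h replicate 1 (0.74), c-Fos 3 h replicate 2 (0.56) or control 3 h replicate 1 (0.37). With the replicate block Syvn1 was called at 0 h (0.28, adjusted p = 0.0252) and 6 h (0.42, adjusted p = 0.00154) too. The block also called its KCl changes with control shRNA of -0.36 and -0.24 at 3 and 6 h (adjusted p = 0.00396 and 0.0326). Edem1, which hands misfolded glycoproteins to degradation, read 556 and 576 (0 h), 526 and 541 (1 h), 386 and 403 (3 h) and 466 and 455 (6 h) with c-Fos shRNA. With control shRNA Edem1 read 585 and 559 (0 h), 506 and 564 (1 h), 365 and 370.2 (3 h) and 557 and 495 (6 h). It was lowest at 3 h with both shRNAs, with log2 changes of -0.46 ± 0.10 with an adjusted p of 0.00393 with c-Fos shRNA, against -0.57 ± 0.10 with an adjusted p of 0.000802 with control shRNA.

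The direction of Sel1l, Edem1 and Derl1 with KCl depended on the probe set. With the mean of all its probe sets Edem1 changed by 0.01 with c-Fos shRNA, against 0.09 with control shRNA at 3 h, in place of the falls above. Sel1l fell at 6 h by the brightest of its 5 probe sets (-0.70 with c-Fos shRNA, against -0.64 with control shRNA), while with control shRNA 3 probe sets rose and 2 fell, and with c-Fos shRNA 2 rose and 2 fell. The second probe set of Edem1 rose at 6 h by 0.99 with c-Fos shRNA, against 1.16 with control shRNA (adjusted p = 0.00316 and 0.000893 over all probe sets). One of the 4 probe sets of Derl1 rose by 0.41 at 6 h with c-Fos shRNA (adjusted p = 0.00693) while the brightest fell by 0.67 on the log2 scale.

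**Figure D4:**
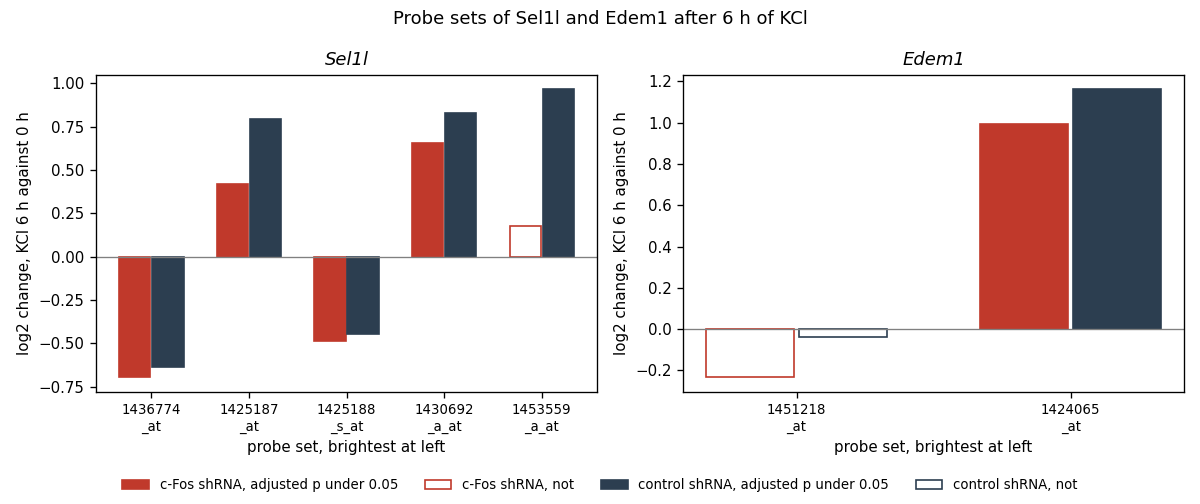
Log2 change after 6 h of KCl (y axis, bars from 0) for each probe set of Sel1l and Edem1 (x axis, brightest at left), with c-Fos shRNA in red to the left of control shRNA in dark blue; filled bars had an adjusted p under 0.05 over all probe sets. Sel1l has bars on both sides of 0 with each shRNA, and the dimmer probe set of Edem1 rises by 0.99 with c-Fos shRNA, against 1.16 with control shRNA.

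Between the shRNAs, c-Fos shRNA neurons differed from control shRNA neurons already at 0 h. Of the 32 genes, 13 were higher and 3 lower at 0 h (12% and 10.3% of all genes), 7 and 3 at 1 h (10.8% and 9.98%), 9 and 5 at 3 h (12.4% and 10.9%), and 5 and 6 at 6 h (13.4% and 10.4%). The median difference of the 32 was 0.21, 0.20, 0.03 and 0.04, beside 0.02, 0.02, 0.01 and 0.02 for all genes. The ATF4 arm had 4 higher genes at 0 h (Atf4, Ddit3, Trib3 and Chac1), 1 at 1 h (Ddit3) and none at 3 or 6 h, and 0, 0, 1 and 2 lower ones. The chaperone arm had 4, 5, 6 and 4 higher and 2, 1, 2 and 3 lower at 0, 1, 3 and 6 h. In ER-associated degradation 3, 1, 3 and 1 of 5 were higher and none lower, and among the 4 sensors and transducers 2, 0, 0 and 0 were higher and 1, 2, 2 and 1 lower.

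Of the 16 genes called at 0 h, 4 stayed called whichever array was left out (Hspa5, Pdia4, Manf and Atf6). The count was 6 without c-Fos 0 h replicate 2 (16.1% of all genes) and 5 without control 0 h replicate 1 (13.4%). At 1 h the 10 calls became 4 without control 1 h replicate 1 (11.4%) and 6 without control 1 h replicate 2 (15.1%). At 3 h the 14 became 8 without c-Fos 3 h replicate 2 (17%) and 7 without control 3 h replicate 1 (13.6%). At 6 h the 11 became 5 without c-Fos 6 h replicate 1 (16.1%), 5 without c-Fos 6 h replicate 2 (15.8%) and 6 without control 6 h replicate 1 (15.1%). With the replicate block the 1 h count was 16 (37.9% of all genes) and the 6 h count 21 (41.5%). Gains with the block that are not given above were Ddit4 (-0.20), Pdia3 (-0.18) and Ern1 (-0.26) at 0 h and Herpud1 (0.34) at 1 h. At 3 h they were Ppp1r15a (-0.25), Pdia6 (-0.20) and Dnajc3 (0.21), and at 6 h Dnajc3 (0.24), Hyou1 (0.28) and Ern1 (-0.27), with adjusted p from 0.00751 to 0.0462. Genes called in the same direction at each of the 4 times were Manf, Pdia4 and Sel1l, 3 higher (6.48% of all genes), and Hspa5 and Atf6, 2 lower (4.97%). Of these, Manf alone kept its 4 calls under every alternative that was run. With the mean of all probe sets Pdia4 was called at no time, Sel1l not at 3 or 6 h and Atf6 not at 6 h.

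**Figure D5:**
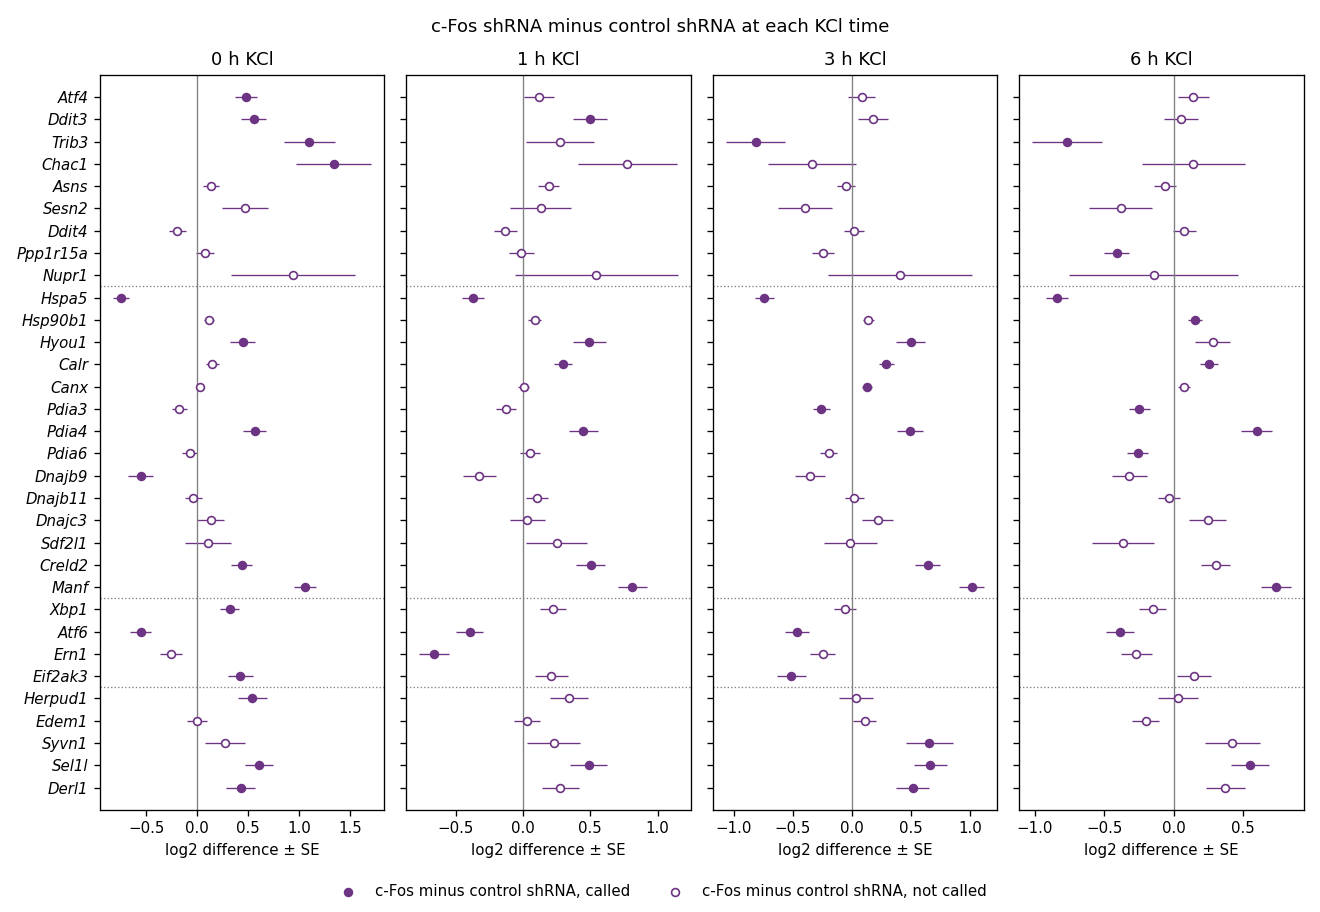
Log2 difference between c-Fos shRNA and control shRNA (x axis, c-Fos minus control, with its standard error) for the 32 genes (y axis) at 0, 1, 3 and 6 h of KCl; filled points passed an adjusted p under 0.05. Manf is at 1.06 and Hspa5 at -0.75 at 0 h, and Trib3 is at 1.10 at 0 h and -0.76 at 6 h.

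Whether the KCl response itself differed between the shRNAs was tested as an interaction, in which the KCl change with control shRNA is subtracted from that with c-Fos shRNA. It shares its 0 h arrays with the 0 h difference. No member was called at 1 h, in either direction (0.00719% of all genes higher and 0.0359% lower), with 4 at an unadjusted p under 0.05 in limma. At 3 h none was higher and 2 were lower (0.129% and 0.273%), Trib3 at -1.92 ± 0.36 with an adjusted p of 0.0465 and Eif2ak3 at -0.94 ± 0.17 with an adjusted p of 0.0465. At 6 h none was higher and 1 was lower (0.453% and 0.783%), Trib3 at -1.87 ± 0.36 with an adjusted p of 0.0306. The values for Chac1 (-1.68 at 3 h and -1.20 at 6 h) had SEs of 0.52 and were not called.

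The interaction calls did not hold when single arrays were left out. Both 3 h calls were also lost without c-Fos 6 h replicate 1 or replicate 2, arrays that the 3 h interaction does not use. Of the Trib3 values, the 3 h call was lost in 15 of 25 alternatives and the 6 h call in 8. Values lay between -2.22 and -1.62 at 3 h and between -2.17 and -1.56 at 6 h when an array was left out. The call for Eif2ak3 was lost in 16, and its value was -0.21 with the mean of its probe sets. The brighter probe set of Trib3 is of a type that can bind related transcripts, and the other gave -0.97 at 3 h and -1.10 at 6 h (not called). With the replicate block the counts were 4 at 3 h (4% of all genes either way) and 5 at 6 h (11.3%). The genes added were Sesn2 (-0.87 and -0.85, adjusted p = 0.00211 and 0.00142) and Xbp1 (-0.38 and -0.47, adjusted p = 0.0132 and 0.00187) at both times. Also added were Ppp1r15a (-0.49, adjusted p = 0.0079) and Ddit3 (-0.50, adjusted p = 0.0293) at 6 h.

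Other genes of the same pathways were read from lists that hold none of the 32. Of 23 other integrated stress response genes, 21 were on the array and 20 were tested, and at 6 h of KCl 12 rose and 3 fell with c-Fos shRNA (16.1% and 24.9% of all genes). With control shRNA 14 rose and 2 fell (16.7% and 27.4%). Mthfd2, a mitochondrial enzyme of folate metabolism, rose by 1.35 with c-Fos shRNA, against 2.36 with control shRNA, and Atf3, a transcription factor induced by ATF4 and by neuronal activity, by 2.61 and 4.36. At 0 h, 6 of the 20 were higher with c-Fos shRNA and none was lower (12% and 10.3% of all genes). The 3 largest were Mthfd2 (0.99 ± 0.29 with an adjusted p of 0.0275), Psph, which completes serine synthesis (0.74 ± 0.15 with an adjusted p of 0.00407), and Vldlr, a lipoprotein receptor (0.71 ± 0.16 with an adjusted p of 0.00714). At 1 h 5 were called higher and 1 lower (10.8% and 9.98% of all genes). At 3 and at 6 h 1 was called higher and 1, Atf3, lower (-1.16 and -1.24). The shares of all genes were 12.4% and 10.9% at 3 h and 13.4% and 10.4% at 6 h.

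Of 34 other ER folding, transport and degradation genes, 32 were on the array and 31 were tested. At 6 h of KCl 5 rose and 11 fell with c-Fos shRNA (16.1% and 24.9% of all genes), and 5 rose and 9 fell with control shRNA (16.7% and 27.4%). Between the shRNAs 8, 6, 9 and 8 were higher (12%, 10.8%, 12.4% and 13.4% of all genes) and 2, 3, 2 and 3 lower (10.3%, 9.98%, 10.9% and 10.4%) at 0, 1, 3 and 6 h. The 3 largest at 0 h were Txndc5 (2.39), a thioredoxin-domain isomerase, Wfs1 (1.53), a membrane protein of the ER, and Hspa13. Hspa13, an Hsp70-type protein of microsomes, was higher with c-Fos shRNA by 1.35, 1.09, 1.27 and 1.26 at 0, 1, 3 and 6 h, and P4hb, the classical protein disulfide isomerase, differed by -0.46, -0.24, -0.21 and -0.50 at those times (all called). Of 8 interferon-response genes on the array, which foreign RNA can induce, 4 passed the filter. None was called between the shRNAs at any time (limma, with 0, 0, 0 and 2 at an unadjusted p under 0.05 at 0, 1, 3 and 6 h).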

How the data were processed

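Total RNA of 16 mouse cortical neuron cultures, 2 per shRNA and KCl time, was hybridised to Affymetrix mouse 430 2.0 arrays of 45101 probe sets. The deposited values are linear intensities, 1 per probe set and array, made by the authors with Affymetrix's own processing per the labels' protocols. Which software version and scaling target they used is not given in the sources used here. Detection calls were not analysed here.

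Intensities were read as log2(intensity + 16). Array medians ran from 104.75 to 118.56, more than 10% apart, so the arrays were quantile normalized. Each gene took its brightest probe set, named by the platform annotation updated through RefSeq; 34945 probe sets had 1 gene, 932 several and 9160 none. Genes at or above the 30th percentile were fitted in limma 3.58.1 (R 4.3.3) as 8 group means with an intensity trend, giving KCl changes within each shRNA, shRNA differences at each time and their interactions. Calls had a Benjamini-Hochberg adjusted p under 0.05. The number of arrays limits precision. The method was tested on simulated data with noise independent between arrays, so that test does not cover the shared deviation of same-numbered arrays given next.

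Same-numbered arrays deviated together (28 pairs, correlations of 0.364 to 0.596), so the replicate number was also fitted as a block; replicate arrays correlated at 0.9906 to 0.9939. Other alternatives were no normalization or a shift to 1 median, a pseudocount of 1 or 64, no filter or the 50th percentile, the mean of all probe sets, no trend, and each array left out. Leaving an array out leaves 1 in its group, and some calls were then lost with little change in value.

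The 32 genes and the other lists were chosen with earlier results of these data known. All 32 are named; array values are given for those with a called shRNA difference or interaction of at least 1 on the log2 scale or the 3 largest KCl changes of their group, and for others by choice. From the 2 lists of other pathway genes at most 3 each way are named.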

Additional observations from a re-analysis of the deposited data

Results flagged for a closer look

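In Trib3, the pseudokinase that restrains ATF4, the KCl response differed between the shRNAs by a test of the difference itself. The interaction, the log2 KCl change with c-Fos shRNA less the change with control shRNA, came to -1.92 after 3 h and to -1.87 after 6 h. Eif2ak3, which encodes PERK, had an interaction of -0.94 at 3 h. None of these 3 calls held whichever array was left out, and with the mean of all probe sets the values for Trib3 and Eif2ak3 at 3 h were -1.45 and -0.21, not called. What separates the shRNAs in these genes was not tested.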

How the results depend on the processing

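With the replicate number as a block no member lost a call and 57 of 416 gene comparisons gained one; the members called were 10 and 8 at 1 h of KCl (c-Fos shRNA, then control), 16 and 21 between the shRNAs at 1 and 6 h, and 4 and 5 in the interaction at 3 and 6 h, and no other count moved by more than 1.5 times. With the mean of all probe sets the members called between the shRNAs were 7 at 3 h and 5 at 6 h, and in the interaction 0 at 3 h and 2 at 6 h; 39 calls were lost, 5 gained and 10 values turned in sign. Those were Edem1 (0.0078 and 0.38 at 3 and 6 h with c-Fos shRNA, against 0.0871 and 0.56 with control shRNA), Sel1l (0.0133 at 6 h with c-Fos shRNA, 0.12 and 0.30 at 3 and 6 h with control shRNA), Pdia4 (0.0703 at 3 h with control shRNA), Pdia6 (0.26 at 6 h with control shRNA) and Eif2ak3 (-0.0169 between the shRNAs at 0 h). Of these, both 6 h values of Edem1 and the 6 h control values of Sel1l and Pdia6 were called higher (limma, adjusted p from 0.00329 to 0.0319). The gained calls included Pdia3 (-0.44 at 6 h with c-Fos shRNA), Pdia6 (0.24 at 3 h with control shRNA) and Xbp1 (-0.62 in the 6 h interaction). The 2 interaction calls at 3 h became 1 with a pseudocount of 1 and 0 without normalization, without the filter or without the intensity trend, and the 1 at 6 h became 0 without normalization. With each array left out in turn, the members called between the shRNAs were 5 to 17 at 0 h, 4 to 10 at 1 h, 7 to 15 at 3 h and 5 to 11 at 6 h. After KCl they were 4 to 7, 7 to 11 and 12 to 18 at 1, 3 and 6 h with c-Fos shRNA, against 3 to 5, 11 to 19 and 17 to 20 with control shRNA, and in the interaction 0 to 2 at 3 h and 0 to 1 at 6 h. Between the shRNAs, the left-out fits with the fewest members called also called a smaller share of all genes, as given above. The cause of these changes was not tested. Precision is limited by 2 arrays a group, and for Nupr1 by an intensity of 10.8 to 108.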
